A study of Rattus norvegicus with 12 samples.

Results

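Chemokines are small secreted proteins, apart from a few that are tethered to the membrane, that guide leukocytes along a concentration gradient. They act through G protein-coupled receptors on the cell surface, and the CC, CXC and CX3C families are named by the spacing of their first cysteines. In the liver, Kupffer cells (the resident macrophages), endothelial cells, stellate cells and hepatocytes make them, and tissue injury and inflammatory cytokines are known to induce a subset through the transcription factor NF-kB. Their transcripts were followed in rat hepatocyte preparations by choosing every array probe set whose only gene symbol began with Ccl, Cxcl, Cx3c, Ccr or Cxcr and ended in a chemokine or receptor number. That rule uses names and no measured values. It found 52 probe sets for 40 genes, of 31042 probe sets on the array that were not controls. Ligands accounted for 37 probe sets of 28 genes, and receptors for 15 probe sets of 12 genes.

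The hepatocytes came from livers of Fischer 334 rats (the strain as the labels spell it), were freed by a collagenase perfusion in 2 steps, and went into RNA extraction with no time in culture. Livers were perfused from heart-beating donors or from nonheart-beating donors at 4 h, 16 h or 30 h after death, with 3 different animals and 3 Affymetrix arrays in each of the 4 groups and 12 arrays in all. No treatment beyond the interval after death, and no age or sex of the rats, is given in the labels. The comparisons address how long after death the transcripts of such cells stay like those of a heart-beating donor. Each value is a log2 signal that the authors made with robust multi-array averaging (RMA), so a difference of 1 is a change of 2-fold. Differences were tested with limma over all 31042 probe sets and called at a Benjamini-Hochberg adjusted p under 0.05.

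The 12 arrays had medians from 5.83 to 5.90, and replicate arrays correlated at 0.9913 or more. The measured markers of hepatocytes averaged log2 12.16 to 12.35 on the 30 h arrays and 12.42 to 12.57 on the heart-beating arrays, so the labelled cell type was borne out in both. Of the 15 hepatocyte markers measured, 3 were called lower and 1 higher at 30 h than in heart-beating donors. Over all probe sets 9.36% were lower and 10.4% higher there. Markers of other liver cells were present too. RNA quality moved with the interval. The 3′ control probe set for Gapdh exceeded the 5′ one by 0.39 ± 0.08 on heart-beating arrays, 0.38 ± 0.10 on 4 h arrays, 1.05 ± 0.20 on 16 h arrays and 1.97 ± 0.29 on 30 h arrays (log2, SD, n = 3 each), and a larger value means less signal from the 5′ end. The 16 h and 30 h groups did not overlap the earlier ones in this measure, so it and the interval cannot be told apart. The same difference for beta-actin ran from 1.8 to 1.9 on heart-beating arrays and from 1.54 to 1.81 on 4 h arrays. It was 1.89, 2.54 and 2.22 on 16 h arrays and 2.75 to 2.95 on 30 h arrays. In beta-actin the first 16 h animal thus lay within the heart-beating range.

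Against heart-beating donors the family as a whole moved little. The shares called in either direction at 16 h and 30 h were close to those of the whole array. At 4 h against heart-beating donors limma called none of the 52 probe sets, where 0.0226% of all probe sets were called, and 2 of the 52 had an unadjusted p under 0.05 (background 5.27%). At 16 h Ccl5 was higher and Ccl6 was lower, which makes 2 calls, or 3.85% of the members against 4.67% of all probe sets (3.18% higher, 1.49% lower). At 30 h 9 of the 52 were called, 2 higher and 7 lower, or 17.3% of the members against 19.7% of all probe sets. The share lower at 30 h was 13.5% of the members and 9.36% of the array, and the share higher was 3.85% of the members and 10.4% of the array.

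At 30 h against heart-beating donors 8 of the 37 ligand probe sets were called (21.6%, beside 19.7% of all probe sets), and 1 of the 15 for receptors (6.67%), Cx3cr1. The contrast between ligands and receptors was not tested. The median log2 difference over the members was 0.0441 at 4 h, -0.0713 at 16 h and -0.0141 at 30 h, beside 0.00148, -0.0242 and 0.00821 over all probe sets. Between times after death, 2 members (3.85%) were lower at 16 h than at 4 h (background 7.82%, 2.52% lower). At 30 h 9 (17.3%) were lower than at 4 h (background 18.9%, 8.62% lower). Against 16 h 1 (1.92%) was lower at 30 h (background 10.2%, 5.95% lower). No member was called higher in any of these 3 comparisons, each of which shares arrays with the others. The member probe sets called in at least 1 of the 6 comparisons were 12, each of a different gene, and 28 genes had no called probe set. The share of all probe sets called in at least 1 comparison was not counted, so this count cannot be read as many or few.

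Most members gave a dim signal. Of the 52, 44 averaged under log2 7 over the 12 arrays, where the 75th percentile of all probe sets was 7.19, and 14 of the 15 receptor probe sets were among them. Signals of different probe sets are not comparable as amounts of RNA, but a dim set leaves less room to see a fall. In preparations with several cell types, fewer cells of a type and less RNA per cell cannot be told apart.

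Many of these genes sit in clusters. In the GRCr8 gene order, 26 of the 40 genes fell into 8 groups of neighbours on the same chromosome with few other coding genes between them. One group on chromosome 10 ran Ccl5, Ccl9, Ccl6, Ccl3 and Ccl4 with no other coding gene in between. Ccl5, Ccl6 and Ccl3 were called against heart-beating donors and Ccl9 was not, so the promoters of the neighbours Ccl6 and Ccl9 are shown, followed by those of Cxcl14 and Cxcl12, the genes with the next smallest p. Each is 300 bases from 250 before to 50 after the annotated start, 5′ to 3′ on the gene's strand, from RefSeq's GRCr8 annotation. Capitals mark TATAAA, the core of a TATA box, and GGAAGT, a core bound by ETS factors, on either strand. Ccl6 lies at chr10:68883317-68883616 (minus strand), Ccl9 at chr10:68868828-68869127 (minus strand), Cxcl14 at chr17:8322900-8323199 (plus strand) and Cxcl12 at chr4:152060531-152060830 (plus strand).
Ccl6: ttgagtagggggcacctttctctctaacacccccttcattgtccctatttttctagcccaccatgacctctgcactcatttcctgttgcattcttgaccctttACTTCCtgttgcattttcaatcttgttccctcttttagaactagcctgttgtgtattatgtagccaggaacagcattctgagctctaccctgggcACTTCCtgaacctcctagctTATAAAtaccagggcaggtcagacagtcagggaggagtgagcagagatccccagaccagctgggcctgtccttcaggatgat
Ccl9: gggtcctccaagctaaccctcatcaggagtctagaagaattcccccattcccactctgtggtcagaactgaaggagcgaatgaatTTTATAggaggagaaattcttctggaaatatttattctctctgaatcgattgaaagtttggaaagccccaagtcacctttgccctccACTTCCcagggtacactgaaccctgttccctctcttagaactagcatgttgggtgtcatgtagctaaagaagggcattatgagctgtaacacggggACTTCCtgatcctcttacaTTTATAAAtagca
Cxcl14: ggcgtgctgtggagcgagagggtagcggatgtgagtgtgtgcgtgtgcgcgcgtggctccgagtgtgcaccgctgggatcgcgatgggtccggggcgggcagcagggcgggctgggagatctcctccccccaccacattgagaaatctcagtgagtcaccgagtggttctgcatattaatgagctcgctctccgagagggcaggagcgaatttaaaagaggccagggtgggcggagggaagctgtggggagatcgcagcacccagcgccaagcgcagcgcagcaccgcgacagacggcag
Cxcl12: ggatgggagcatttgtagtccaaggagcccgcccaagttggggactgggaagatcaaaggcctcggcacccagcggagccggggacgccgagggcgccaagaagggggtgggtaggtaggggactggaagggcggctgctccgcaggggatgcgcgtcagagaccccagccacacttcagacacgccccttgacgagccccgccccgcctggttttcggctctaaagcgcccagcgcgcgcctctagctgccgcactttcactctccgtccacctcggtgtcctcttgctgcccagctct

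The sequences differ in base composition. The Ccl6 window was 48.7% G or C with 0 CpG dinucleotides, and the Ccl9 window was 44.7% G or C with 3 CpG, against 64.7% and 26 CpG for Cxcl14 and 66.7% and 23 CpG for Cxcl12. The TATAAA of Ccl6 began at position -32 relative to the start. Of 3 matches in the Ccl9 window the first began at -165, on the reverse strand, and the others lie after the annotated start. The windows of Ccl6 and Ccl9 aligned over 142 columns with 105 identities, 29 mismatches and 8 gap positions, or 78.4% identity without gaps. The aligned stretch ran from base 93 to 229 of the Ccl6 window and from base 162 to 300 of the Ccl9 window. The neighbour that fell and the one that was not called thus share sequence, but at different distances from their annotated starts. Both hold GGAAGT on the reverse strand, as ACTTCC, 2 times.

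Over the 31 member genes with a promoter in the table, 9 (29%) held TATAAA on either strand against 14.2% of all 33469 promoters, and 16 (51.6%) held GGAAGT against 22.6%. A loose NF-kB frame, GGG and CC with 5 free bases between, was in 18 (58.1%) against 47.3%, the AP-1 site TGANTCA in 5 (16.1%) against 7.33%, the interferon element frame, GAAA repeated after 2 free bases, in 2 (6.45%) against 3.92%, and the E-box CACGTG in 1 (3.23%) against 6.42%. TATAAA and its reverse complement overlap in TTTATAAA, as near the end of the Ccl9 window. These motifs were chosen with the expression results known, and a match is a run of letters and not a measured binding site. Members were counted with 1 promoter per gene, while the 33469 include every promoter of that length in the table. Neighbours that share sequence, such as Ccl6 and Ccl9, were counted separately. The promoters of Ccl5, Ccl3 and Ccl4 were not used here.

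Ccl6, a CC chemokine of rodents that macrophages make and that is a ligand of Ccr1 in the mouse, showed the largest fall of the family. Its probe set (1389123_at) gave 10.61, 10.62 and 10.65 on heart-beating arrays, 10.66, 10.27 and 10.53 on 4 h arrays, 9.35, 8.71 and 9.05 on 16 h arrays and 8.05, 8.27 and 8.97 on 30 h arrays. The 3 heart-beating arrays lay within a few hundredths of each other, every array at 16 h and 30 h was below every earlier one, and the 16 h and 30 h arrays overlapped. From heart-beating donors Ccl6 differed by -1.59 log2 units at 16 h (SE 0.20, adjusted p = 0.00158), a level 3.01-fold lower, and -2.20 at 30 h (SE 0.20, adjusted p = 1.92e-05), a level 4.58-fold lower. Against 4 h it was -1.45 at 16 h (adjusted p = 0.00138) and -2.06 at 30 h (adjusted p = 3.15e-05). The 4 h group differed from heart-beating donors by -0.14 (95% interval -0.58 to 0.30), and 30 h from 16 h by -0.60 (adjusted p = 0.0774), and neither passed the test.

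**Figure D1:**
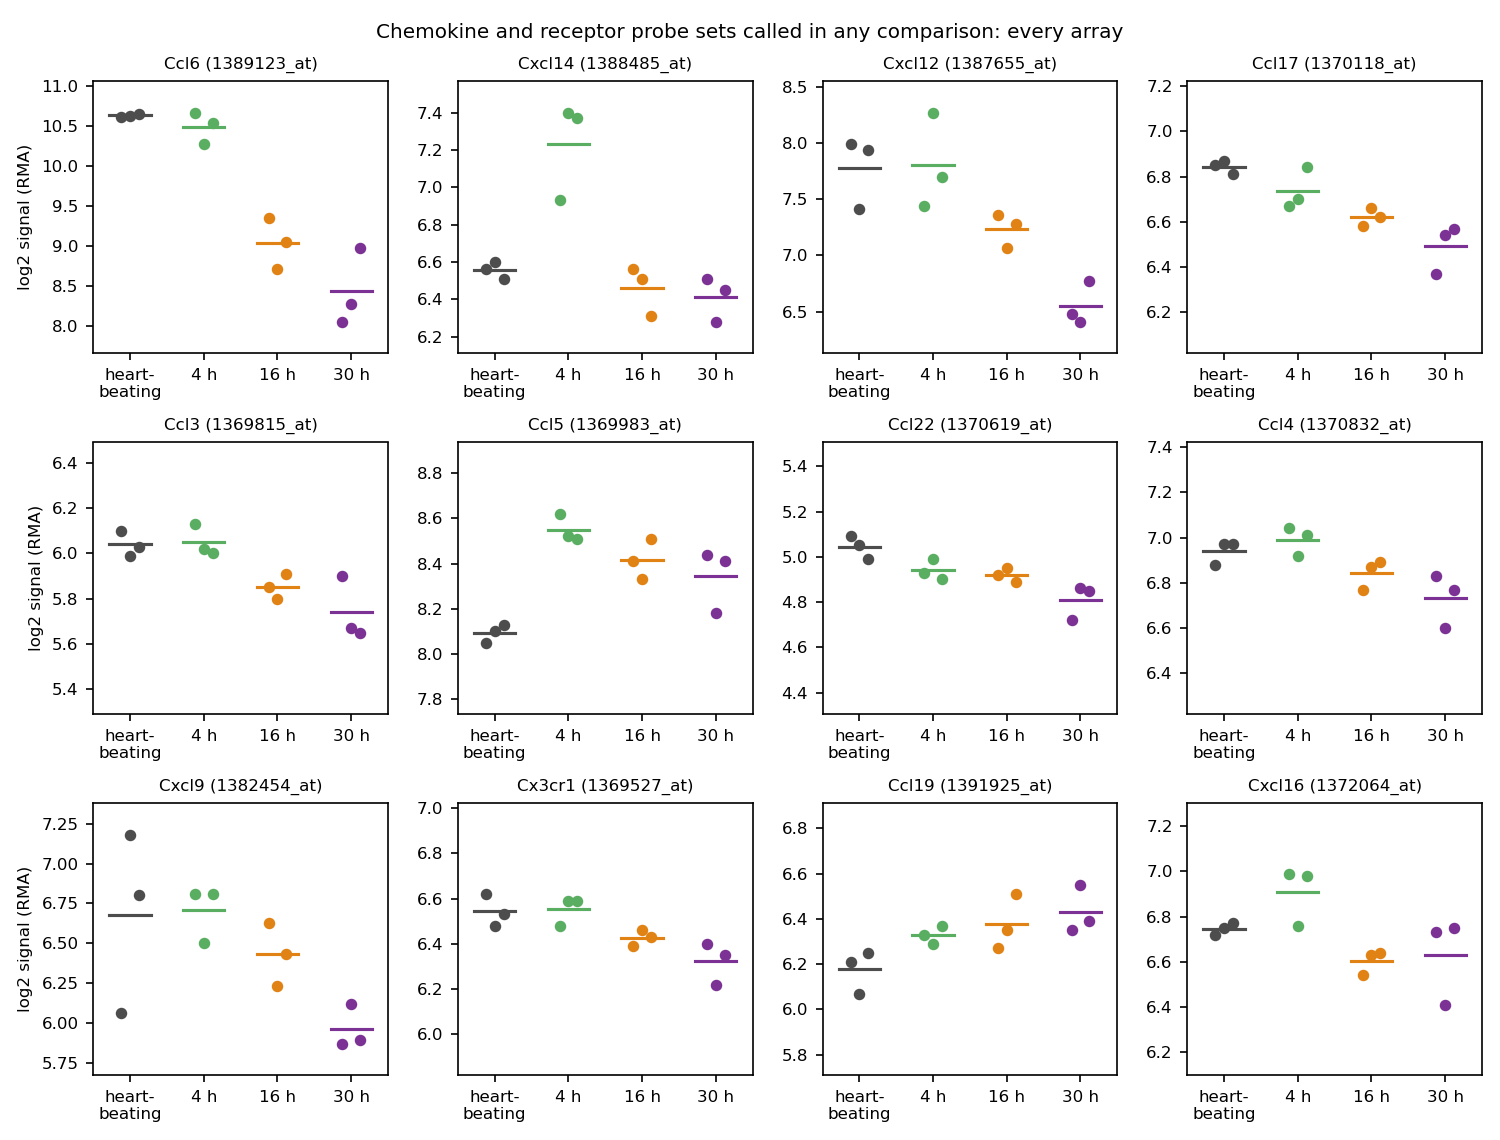
Log2 signal of the 12 probe sets called in any comparison, 1 panel each, with every array as a point and the group mean as a line, from heart-beating donors to 30 h after death (n = 3 each). Ccl6 spans 8.05 to 10.66, while most other panels span less than 1 log2 unit.

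Most transcripts that mark Kupffer cells fell with Ccl6. Of 20 listed markers 16 were measured, of which none was called at 4 h, 6 were called lower at 16 h (median log2 difference -0.33) and 11 were called lower at 30 h (median -0.65), where 1.49% and 9.36% of all probe sets were lower. At 4 h 1 of the 16 had an unadjusted p under 0.05, and 14 differences lay above 0. The mean log2 signal of the list was 8.22 to 8.30 on heart-beating arrays, 8.20 to 8.54 on 4 h arrays, 7.77 to 7.99 on 16 h arrays and 7.52 to 7.79 on 30 h arrays. Its summed signal was 6815 to 7129 on heart-beating arrays, 6780 to 8407 on 4 h arrays, 5010 to 5541 on 16 h arrays and 4617 to 5278 on 30 h arrays. RMA signals have no true 0, and Adgre1, a macrophage surface protein, gave 4.64 to 4.80 on 30 h arrays, near the 25th percentile of all probe sets (4.73), against 6.04 to 6.22 on heart-beating arrays. The markers with the smallest p at 30 h were Cd5l (-1.18, adjusted p = 4.77e-05), Adgre1 (-1.38, adjusted p = 6.68e-05) and Cybb (-1.25, adjusted p = 0.000162). At 30 h 5 of the 16 were not called. Lyz2, Cd14 and Fcgr1a averaged 9.65, 9.83 and 6.6 on 30 h arrays, against 9.53, 9.84 and 6.64 on heart-beating arrays. Clec4f and Csf1r averaged 9.53 and 7.12 on 30 h arrays, against 9.85 and 7.4 on heart-beating arrays. Cd14 was called higher at 30 h than at 16 h (0.64, adjusted p = 0.00142).

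The fall of Ccl6 was larger than the mean fall of these markers. Ccl6 minus the marker mean was 2.37 ± 0.06 on heart-beating arrays, 2.13 ± 0.07 on 4 h arrays, 1.17 ± 0.21 on 16 h arrays and 0.79 ± 0.34 on 30 h arrays (log2, SD, n = 3 each). This measure, chosen after the values were seen, changed by -0.24 at 4 h, -1.20 at 16 h and -1.58 at 30 h, with no overlap with heart-beating donors. An exact two-sided permutation test gave p = 0.1 each time. That is the smallest p that 3 against 3 arrays allow, so the test could not pass the threshold and decides nothing. Ccl6 had also been picked out as the member with the largest fall on these same arrays. The marker mean includes all 5 markers that were not called at 30 h against heart-beating donors, Lyz2, Cd14 and Fcgr1a among them. The probe sets of other genes most like Ccl6 over the 12 arrays, by Pearson's r, were Cybb (0.987), the phagocyte oxidase subunit, Ctss (0.986), the lysosomal protease cathepsin S, Cd5l (0.983), a protein secreted by macrophages, Arl6ip5 (0.98), and Lgals3 (0.98), the lectin galectin-3. Cybb and Cd5l were in the marker list. Close behind came Tnks2 and Ost4 (0.975 each) and the ribosomal protein transcripts Rps16 and Rps15a (0.974 each). Those 4 are not in the list, while C1qc (0.971), next in order, is. All of these points share the same 12 arrays and the same drop between 4 h and 16 h.

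The Gapdh 3′ minus 5′ difference moved with Ccl6 as well. With that difference as a covariate, the Ccl6 difference was -0.89 at 16 h (SE 0.30, adjusted p = 0.127) and -0.52 at 30 h (SE 0.62, adjusted p = 0.735), and it was -0.74 and -0.37 against 4 h (adjusted p = 0.151 and 0.808), so all 4 Ccl6 calls were lost. That fit called 0.226% of all probe sets at 16 h. The part of RNA quality and of Kupffer cell content in the fall of Ccl6 was not tested further.

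**Figure D2:**
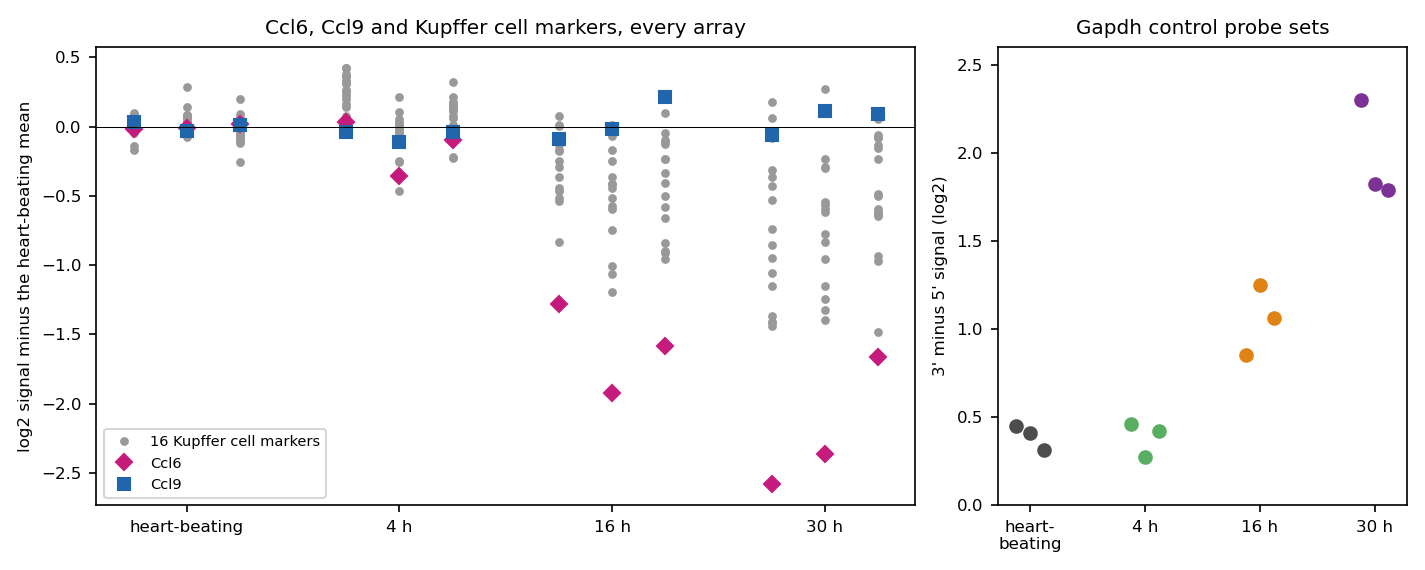
Left, log2 signal minus the heart-beating mean of the same probe set for Ccl6, Ccl9 and the 16 measured Kupffer cell markers on each of the 12 arrays. Right, the Gapdh 3′ minus 5′ difference by array, from heart-beating donors (0.31 to 0.45) to 30 h (1.79 to 2.30). Ccl6 lies below all 16 markers on every 16 h and 30 h array, and Ccl9 stays near 0.

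Ccl9, another ligand of Ccr1 in the mouse, gave 12.44, 12.38 and 12.42 on heart-beating arrays, 12.37, 12.30 and 12.37 on 4 h arrays, 12.32, 12.39 and 12.62 on 16 h arrays and 12.35, 12.52 and 12.50 on 30 h arrays. The groups overlapped at 16 h and 30 h, and all 4 h arrays lay just below the heart-beating ones. The difference from heart-beating donors was 0.03 at 16 h (95% interval -0.14 to 0.20) and 0.05 at 30 h (95% interval -0.13 to 0.22), so the interval at 30 h leaves out any fall as large as the one of Ccl6.

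The other genes of the chromosome 10 group gave smaller differences. Ccl5, also called RANTES, attracts T cells, monocytes and eosinophils. It gave 8.05, 8.10 and 8.13 on heart-beating arrays, 8.62, 8.52 and 8.51 on 4 h arrays, 8.41, 8.33 and 8.51 on 16 h arrays and 8.44, 8.18 and 8.41 on 30 h arrays. Every array after death lay above all 3 heart-beating arrays. The log2 difference was 0.32 at 16 h (SE 0.08, adjusted p = 0.0362) and 0.25 at 30 h (SE 0.08, adjusted p = 0.0418). At 4 h the difference was 0.46 (SE 0.08, unadjusted p = 5.91e-05) and missed the threshold after adjustment (adjusted p = 0.153), in a comparison where 7 probe sets of the whole array were called, although it was called with array weights (adjusted p = 0.0308). Over the alternatives tried, adjusted p for Ccl5 ran from 0.0308 to 0.768 at 4 h, from 0.0112 to 0.345 at 16 h and from 0.00825 to 0.941 at 30 h. Cyclic loess, a further quantile normalization, a variance trend with robust settings and the Gapdh covariate (0.24 at 16 h, 0.07 at 30 h) ended the 16 h and 30 h calls, and fitting only the groups compared ended the one at 30 h. Leaving out any heart-beating array ended both calls. So did leaving out animal 2 of the 4 h group or any 16 h animal for the 16 h call (0.27 to 0.36 over all 12 omissions), and animal 2 or 3 of the 4 h group, animal 1 of the 16 h group or animal 1 or 3 of the 30 h group for the 30 h call (0.20 to 0.33).

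T and NK cells are a source of Ccl5. Of 14 measured T and NK cell markers none was called at 4 h or 16 h (unadjusted p under 0.05 in 3 and 2), and 1 was called higher and 1 lower at 30 h. Their mean log2 signal was 5.87 to 5.94 on heart-beating arrays, 5.97 to 6.04 on 4 h arrays, 5.86 to 5.98 on 16 h arrays and 5.92 to 6.08 on 30 h arrays. Their part in the values of Ccl5 was not tested.

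Ccl3 and Ccl4, known as MIP-1 alpha and beta, are made by activated macrophages. Ccl3 gave 6.10, 5.99 and 6.03 on heart-beating arrays, 6.13, 6.02 and 6.0 on 4 h arrays, 5.85, 5.80 and 5.91 on 16 h arrays and 5.90, 5.67 and 5.65 on 30 h arrays. All arrays at 16 h and 30 h lay below all earlier ones. Ccl3 fell at 30 h by 0.30 against heart-beating donors (SE 0.08, adjusted p = 0.0132) and by 0.31 against 4 h (adjusted p = 0.0108). The first of these calls was lost without heart-beating animal 1 (log2 difference -0.27, adjusted p = 0.052). Ccl4 gave 6.88, 6.97 and 6.97 on heart-beating arrays, 7.04, 6.92 and 7.01 on 4 h arrays, 6.77, 6.87 and 6.89 on 16 h arrays and 6.83, 6.60 and 6.77 on 30 h arrays. Ccl4 fell at 30 h against 4 h (-0.26, adjusted p = 0.0226), and its difference from heart-beating donors of -0.21 was not called (adjusted p = 0.0571). The Ccl4 call was lost without animal 1 or 3 of the 4 h group or animal 2 of the 30 h group (-0.30 to -0.19 over all 12 omissions). Fitting only the groups compared ended all 3 of these calls (adjusted p = 0.0566 and 0.051 for Ccl3, 0.0798 for Ccl4). So did the Gapdh covariate, with larger differences of wider error, -0.77 (SE 0.26) and -0.78 for Ccl3 and -0.67 for Ccl4 (adjusted p from 0.215 to 0.249).

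Ccl17 and Ccl22 are the ligands of Ccr4, and they neighbour each other on chromosome 19 with Cx3cl1 between them. Ccl17 gave 6.85, 6.87 and 6.81 on heart-beating arrays, 6.67, 6.70 and 6.84 on 4 h arrays, 6.58, 6.66 and 6.62 on 16 h arrays and 6.37, 6.54 and 6.57 on 30 h arrays. The 30 h arrays lay below every other array. Ccl17 fell at 30 h by 0.35 against heart-beating donors (SE 0.07, adjusted p = 0.00333) and by 0.24 against 4 h (adjusted p = 0.0253). The call against 4 h was lost without animal 3 of the 4 h group or animal 1 of the 30 h group (-0.28 to -0.19 over all 12 omissions), with array weights (adjusted p = 0.0592) and when only the groups compared were fitted (adjusted p = 0.0981). With the Gapdh covariate both calls ended, at -0.13 against heart-beating donors (adjusted p = 0.847) and -0.03 against 4 h (adjusted p = 0.973). One probe set of Ccl22 (1370619_at) gave 5.09, 5.05 and 4.99 on heart-beating arrays, 4.93, 4.99 and 4.90 on 4 h arrays, 4.92, 4.95 and 4.89 on 16 h arrays, and 4.72, 4.86 and 4.85 on 30 h arrays. It was lower at 30 h than in heart-beating donors by -0.23 (SE 0.06, adjusted p = 0.0189), with no overlap, while the other set for Ccl22 (1370620_at) differed by 0.06 (adjusted p = 0.597). The pair of sets correlated at -0.18 over the 12 arrays, so the Ccl22 call rests on 1 of them, and it was lost without animal 1 or 2 of the heart-beating group or animal 1 of the 30 h group (-0.26 to -0.19 over all 12 omissions). It was also lost with the mean of the gene's probe sets (-0.08, adjusted p = 0.319), with only the groups compared (adjusted p = 0.0766) and with the Gapdh covariate (0.00, adjusted p = 0.997).

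Ccl19, a ligand of Ccr7 that draws T cells and dendritic cells to lymphoid tissue, gave 6.21, 6.07 and 6.25 on heart-beating arrays, 6.33, 6.29 and 6.37 on 4 h arrays, 6.27, 6.35 and 6.51 on 16 h arrays, and 6.35, 6.55 and 6.39 on 30 h arrays. All 30 h arrays lay above all heart-beating ones. The difference at 30 h was 0.26 (SE 0.08, adjusted p = 0.0394). That call was lost when any of the heart-beating or 4 h animals, animal 2 of the 16 h group or animal 2 or 3 of the 30 h group was left out (0.20 to 0.30 over all 12 omissions). It was also lost with cyclic loess, a further quantile normalization, array weights, only the groups compared and the replicate block (adjusted p from 0.0517 to 0.0894), and with the Gapdh covariate (0.38, adjusted p = 0.601). The other lymphoid homing ligands, Ccl21 and Cxcl13, differed at 30 h by 0.13 and 0.05 and were not called.

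Cxcl12, also called SDF-1, is the ligand of Cxcr4 and is made by stromal and endothelial cells. It had 3 probe sets, and they disagreed. The set 1387655_at gave 7.99, 7.41 and 7.94 on heart-beating arrays, 7.44, 8.27 and 7.70 on 4 h arrays, 7.36, 7.07 and 7.28 on 16 h arrays and 6.48, 6.41 and 6.77 on 30 h arrays. Every 30 h array lay below every other array. At 30 h this set differed by -1.23 log2 units against heart-beating donors (SE 0.19, adjusted p = 0.000828), a level 2.34-fold lower, -1.25 against 4 h (adjusted p = 0.000663) and -0.68 against 16 h (SE 0.19, adjusted p = 0.0415). The call against 16 h was lost without any of 7 animals: 3 of the heart-beating group, 3 of the 4 h group, all of the 16 h group, and 1 or 2 of the 30 h group (-0.79 to -0.61 over all 12 omissions). It was also lost with the mean of the gene's probe sets (-0.38, adjusted p = 0.0985), array weights (-0.57, adjusted p = 0.125) and the replicate block (adjusted p = 0.0667).

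The brightest Cxcl12 set, 1388583_at, gave 11.41, 11.04 and 11.24 on heart-beating arrays, 11.13, 11.33 and 10.94 on 4 h arrays, 11.45, 11.45 and 11.39 on 16 h arrays, and 11.15, 11.17 and 11.41 on 30 h arrays. The set 1369633_at gave 11.03, 10.52 and 10.92 on heart-beating arrays, 10.67, 11.09 and 10.91 on 4 h arrays, 11.08, 10.95 and 10.86 on 16 h arrays, and 10.59, 10.67 and 10.82 on 30 h arrays. Their groups overlapped at 30 h, with differences from heart-beating donors of 0.01 (95% interval -0.23 to 0.26) and -0.13 (95% interval -0.41 to 0.16). The gap between 1387655_at and 1388583_at changed by -0.74 at 16 h (adjusted p = 0.00198) and by -1.24 at 30 h (SE 0.14, adjusted p = 1.77e-06), by limma with Benjamini-Hochberg adjustment over 6609 such pairs of probe sets of the same gene. Such changes were common on the array, with 14.1% of pairs called at 16 h and 34.8% at 30 h, against 1 and 2 of the 12 pairs of the family. The calls for the Cxcl12 gene therefore rest on 1 of its 3 probe sets. With the Gapdh covariate the difference of 1387655_at at 30 h was -0.13 against heart-beating donors (SE 0.69, adjusted p = 0.952), -0.15 against 4 h (adjusted p = 0.939) and -0.05 against 16 h (adjusted p = 0.984), and its calls were lost. Of 17 measured stellate cell and fibroblast markers, 8 were called higher and none lower at 30 h (10.4% of all probe sets were higher), with a summed signal of 5702 to 7576 on 30 h arrays and 3880 to 5102 on heart-beating arrays. Of 17 measured liver endothelial cell markers 3 were called higher and none lower, beside the same 10.4%, with 3548 to 5167 on 30 h arrays and 3687 to 4062 on heart-beating arrays. Their part in the values of Cxcl12 was not tested.

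**Figure D3:**
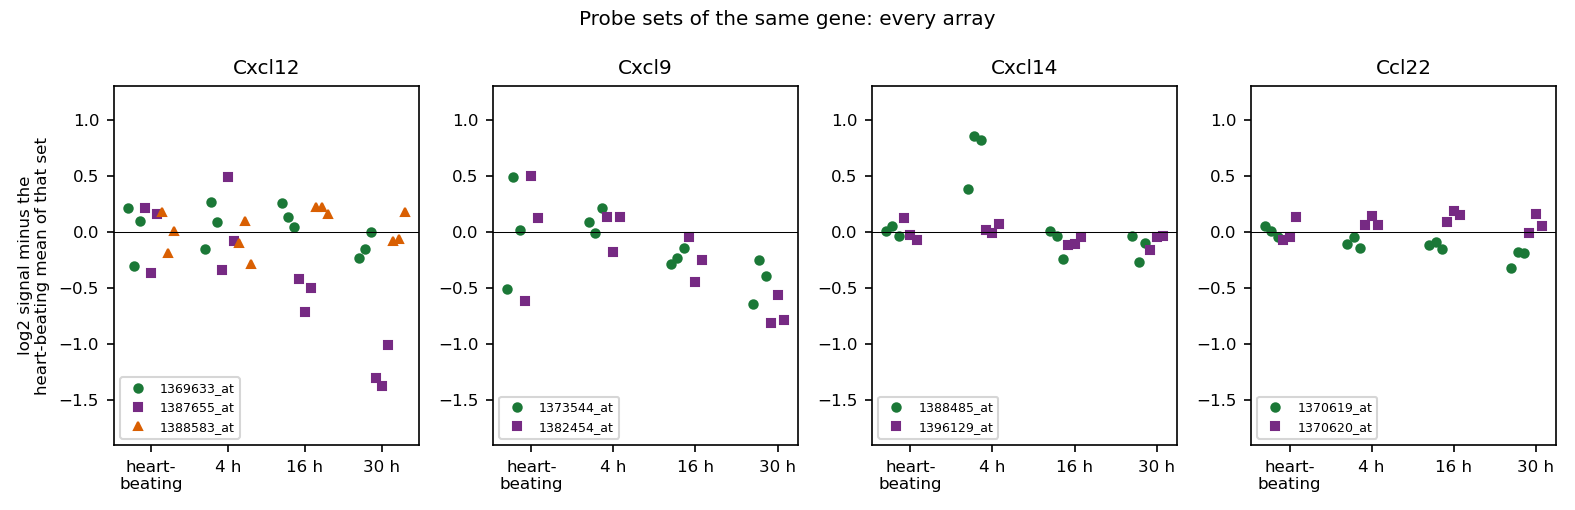
Log2 signal minus the heart-beating mean of the same probe set, for genes with several probe sets, with every array as a point from heart-beating donors to 30 h (n = 3 each). The Cxcl12 set 1387655_at lies below 0 at 30 h while 1388583_at and 1369633_at stay near 0, and both Cxcl9 sets move together.

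Cxcl14, a chemokine that epithelia make without stimulation, had 1 probe set of 2 that was lower at 16 h and 30 h than at 4 h. That set, 1388485_at, gave 6.56, 6.60 and 6.51 on heart-beating arrays, 6.93, 7.40 and 7.37 on 4 h arrays, 6.56, 6.51 and 6.31 on 16 h arrays and 6.51, 6.28 and 6.45 on 30 h arrays. The 4 h arrays lay above all 9 others. Against heart-beating donors the 4 h difference was 0.68 (SE 0.11, unadjusted p = 5.19e-05) and was not called (adjusted p = 0.146), although it was called with array weights (adjusted p = 0.0336) and without animal 1 of the 4 h group (adjusted p = 0.0116). Later arrays were lower than 4 h, by -0.77 at 16 h (SE 0.11, adjusted p = 0.00192) and by -0.82 at 30 h (SE 0.11, adjusted p = 0.000337). The other Cxcl14 set (1396129_at) differed by 0.03 at 4 h from heart-beating donors and was not called in any comparison. The gap between the sets changed by 0.65 at 16 h against 4 h (adjusted p = 0.00229) and by 0.71 at 30 h against 4 h (adjusted p = 0.000347), by the same test of pairs, which called 19.0% and 35.3% of all pairs there. With the mean of both sets the Cxcl14 differences were -0.45 and -0.47 and still called (adjusted p = 0.00328 and 0.000766). With the Gapdh covariate those of 1388485_at were -0.78 (SE 0.22, adjusted p = 0.0615) and -0.84 (SE 0.45, adjusted p = 0.383), and both calls were lost.

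Cxcl9, Cxcl10 and Cxcl11 are induced by interferon gamma, bind Cxcr3 and adjoin on chromosome 14. Cxcl9 had 2 probe sets that correlated at 0.91 over the 12 arrays. The set 1382454_at gave 6.06, 7.18 and 6.80 on heart-beating arrays, 6.81, 6.50 and 6.81 on 4 h arrays, 6.63, 6.23 and 6.43 on 16 h arrays and 5.87, 6.12 and 5.89 on 30 h arrays. The first heart-beating animal was low and the second high, and the 30 h arrays overlapped the heart-beating ones but not the 4 h ones. The difference at 30 h was -0.72 against heart-beating donors (SE 0.21, adjusted p = 0.0305) and -0.75 against 4 h (adjusted p = 0.0255), with no overlap for the second. The first call was lost without heart-beating animal 2 or 3 or 30 h animal 1 or 3 (-1.03 to -0.47 over all 12 omissions), and the second without 4 h animal 1 or 3 or 30 h animal 1 or 3 (-0.85 to -0.70). The first was also lost with the mean of both sets (-0.57, adjusted p = 0.0591) and with only the groups compared (adjusted p = 0.0949), and the Gapdh covariate ended both, at -0.02 (SE 0.81, adjusted p = 0.994) and -0.05 (adjusted p = 0.985). In the other set (1373544_at) the differences were -0.42 (adjusted p = 0.136) and -0.52 (adjusted p = 0.0683).

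Cxcl11 gave 9.51, 9.33 and 9.52 on heart-beating arrays, 9.24, 9.39 and 9.46 on 4 h arrays, 9.71, 9.70 and 9.5 on 16 h arrays, and 9.28, 9.49 and 9.69 on 30 h arrays. At 16 h Cxcl11 differed by 0.19 and at 30 h by 0.03 from heart-beating donors, and neither passed the test. Cxcl10 differed by 0.21 at 4 h (95% interval -0.09 to 0.51), with the third 4 h animal at 6.40 and the other 11 arrays between 5.60 and 5.87. The same animal had the highest Ccl2 value, 6.30. These values of a lone animal were picked after they were seen.

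Cxcl16, a membrane-bound ligand of Cxcr6, gave 6.72, 6.75 and 6.77 on heart-beating arrays, 6.99, 6.76 and 6.98 on 4 h arrays, 6.54, 6.63 and 6.64 on 16 h arrays, and 6.73, 6.41 and 6.75 on 30 h arrays. It was lower at 30 h than at 4 h (-0.28, SE 0.09, adjusted p = 0.0489), and the call was lost when any of 9 of the 12 animals was left out (-0.36 to -0.17), all but 4 h animal 2 and 30 h animals 1 and 3. It was also lost with a variance trend and robust settings, array weights and only the groups compared (adjusted p = 0.051, 0.0713 and 0.148), and with the Gapdh covariate (-0.77, SE 0.33, adjusted p = 0.291). Against heart-beating donors it was not called (-0.12, adjusted p = 0.426).

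The chemokines best known from tissue injury were not called in any comparison. Cxcl1, Cxcl2, Cxcl3 and Cxcl6, which attract neutrophils, had 8 probe sets with array values from 3.38 to 6.88. Their differences from heart-beating donors at 4 h ran from -0.05 to 0.08, at 16 h from -0.13 to 0.03 and at 30 h from -0.09 to 0.16. Over these comparisons the 95% intervals reached no lower than -0.47 (at 16 h) and no higher than 0.43 (at 4 h). Ccl2 and Ccl7, which attract monocytes through Ccr2, differed by 0.07 and 0.10 at 4 h, and by 0.11 and -0.07 at 30 h, with intervals between -0.33 and 0.40 over the 3 comparisons. Ccl11, Ccl20, Ccl24, Ccl27, Ccl28 and Cx3cl1 differed by -0.13 to 0.14 over the same comparisons. A p above the threshold does not show equal levels, so the intervals are given. Of 7 measured neutrophil markers none was called against heart-beating donors, with an unadjusted p under 0.05 in 1 at 4 h, 2 at 16 h and 2 at 30 h. S100a9 was lower at 16 h than at 4 h (-0.96, adjusted p = 0.04), and S100a9 (-1.03, adjusted p = 0.0138) and S100a8 (-0.63, adjusted p = 0.0452), subunits of the neutrophil protein calprotectin, were lower at 30 h than at 4 h. Their part in the chemokine values was not tested.

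Among the receptors Cx3cr1, the receptor of fractalkine on monocytes and macrophages, was the one called in the fit reported. It gave 6.62, 6.48 and 6.53 on heart-beating arrays, 6.48, 6.59 and 6.59 on 4 h arrays, 6.39, 6.46 and 6.43 on 16 h arrays and 6.40, 6.22 and 6.35 on 30 h arrays. The 30 h arrays lay below all heart-beating and 4 h arrays. Cx3cr1 fell at 30 h by 0.22 against heart-beating donors (SE 0.07, adjusted p = 0.0373) and by 0.23 against 4 h (adjusted p = 0.0282). The first call was lost without heart-beating animal 1 or 3, 16 h animal 3 or 30 h animal 2 or 3 (-0.26 to -0.17 over all 12 omissions), and the second without 4 h animal 2 or 3 or 30 h animal 2 (-0.27 to -0.18). Both were also lost with only the groups compared (adjusted p = 0.111 and 0.0907) and with the Gapdh covariate (-0.48 and -0.50, adjusted p = 0.398 and 0.356), and the first with a variance trend and robust settings (adjusted p = 0.0523) and the replicate block (adjusted p = 0.06). Its ligand Cx3cl1 differed by -0.11 at 30 h and was not called.

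The 6 CC receptor probe sets (Ccr1, Ccr2, Ccr3, Ccr4, Ccr6 and Ccr10) gave 4.29 to 6.45, with differences at 4 h from -0.14 to 0.15, at 16 h from -0.22 to -0.06 and at 30 h from -0.25 to 0.09. All 6 lay below 0 at 16 h without a call. At that time 39 of the 52 members lay below 0, and the median over all probe sets was -0.0242. The 8 CXC receptor probe sets (Cxcr1 to Cxcr5) differed at 4 h by -0.05 to 0.12, at 16 h by -0.18 to 0.04 and at 30 h by -0.12 to 0.11. Cxcr5, picked out after its values were seen, had a set at 9.05 to 9.35 (1386557_at) and a set at 6.09 to 6.39 (1369911_at) whose correlation over the 12 arrays was 0.03. Cxcr4, the receptor of Cxcl12, had 3 sets with differences at 30 h of 0.00, -0.05 and -0.11.

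**Figure D4:**
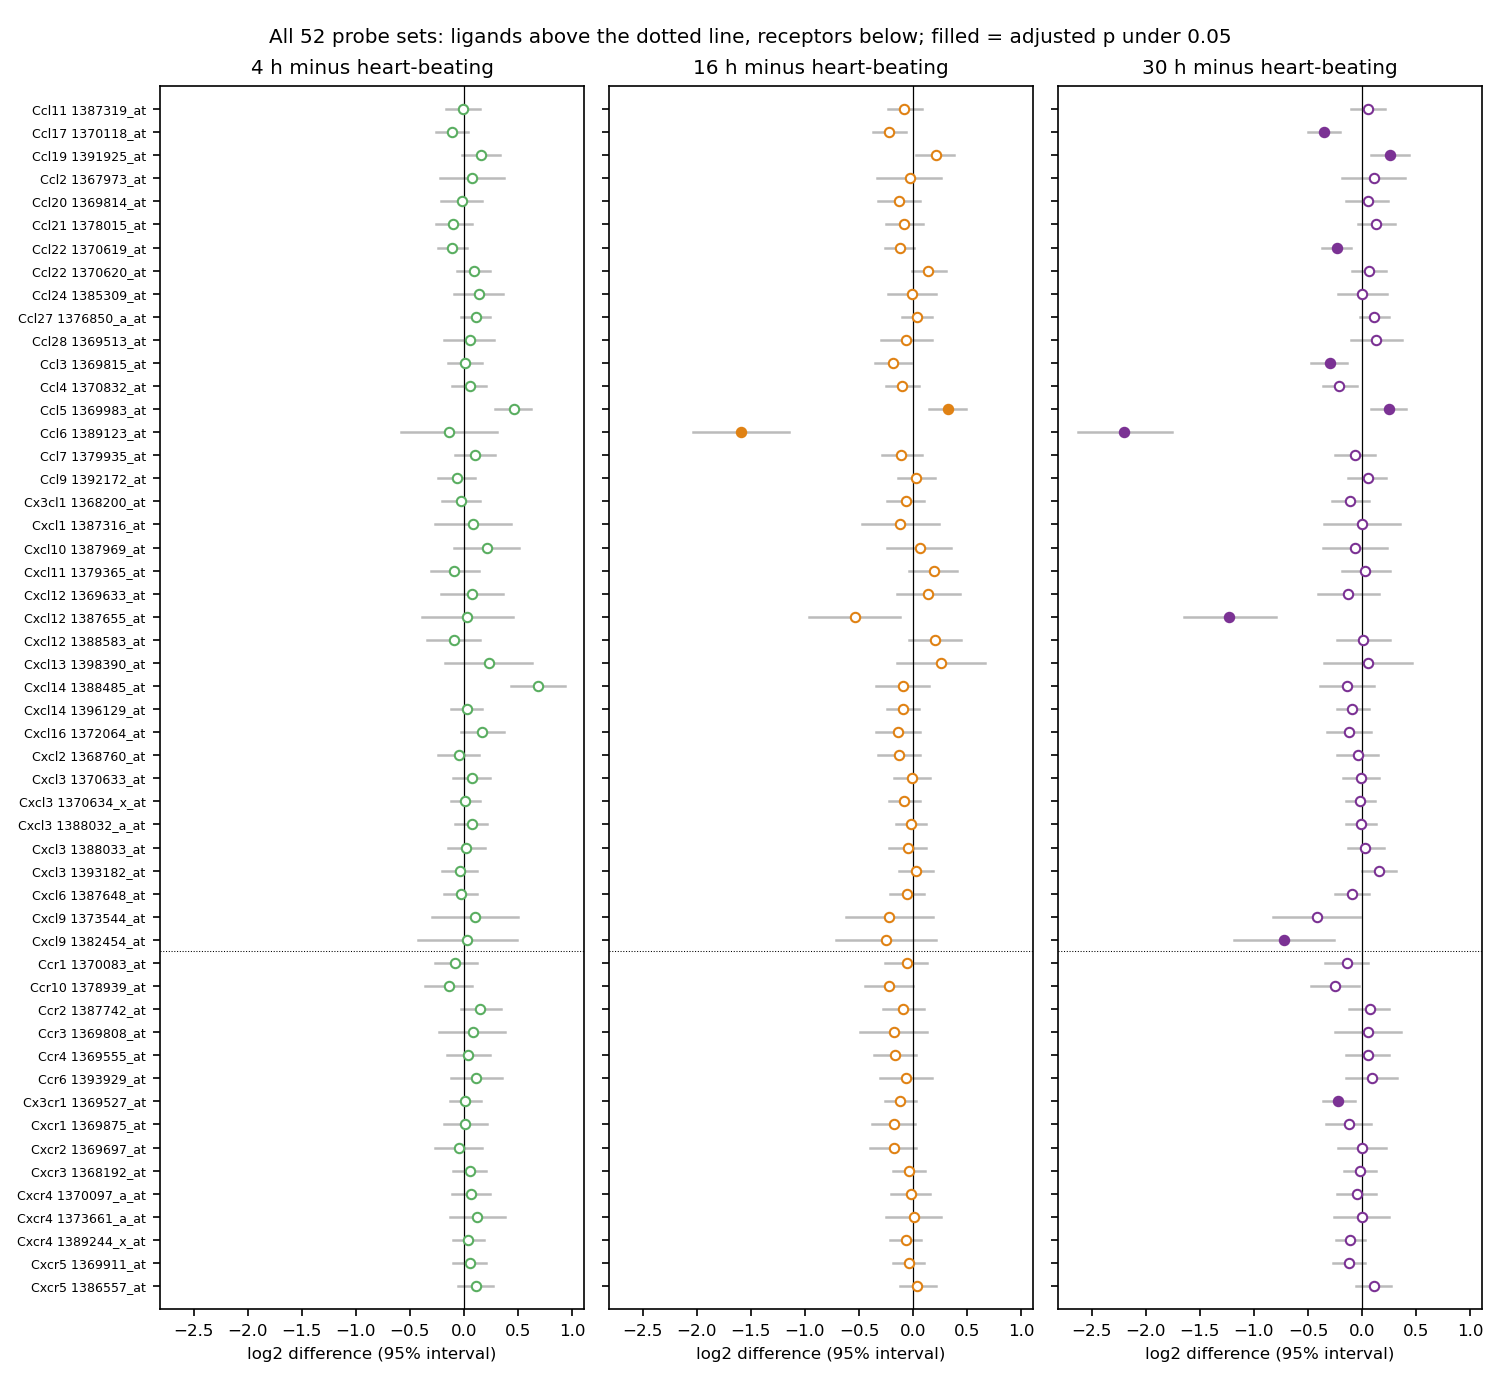
Log2 difference from heart-beating donors with its 95% interval for all 52 probe sets at 4 h, 16 h and 30 h (3 arrays against 3), with ligands above the dotted line and receptors under it. Filled points have an adjusted p under 0.05: none at 4 h, 2 at 16 h and 9 at 30 h, and Ccl6 lies farthest from 0.

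Relatives of the family that the name rule leaves out were also read. Of 17 listed, 15 were measured: none was called at 4 h (unadjusted p under 0.05 in 2), 1 was higher and 1 lower at 16 h, and 3 were higher and 1 lower at 30 h. Over all probe sets 3.18% were higher and 1.49% lower at 16 h, and 10.4% were higher and 9.36% lower at 30 h, and a list of this size can be read against these shares only roughly. Pf4, platelet factor 4, a CXC chemokine stored in platelets, gave 6.02, 5.89 and 6.08 on heart-beating arrays, 6.92, 6.63 and 6.62 on 4 h arrays, 6.75, 7.0 and 6.69 on 16 h arrays and 7.36, 6.70 and 6.92 on 30 h arrays. Every array after death lay above the heart-beating ones. The difference of Pf4 was 0.73 at 4 h (adjusted p = 0.298), 0.82 at 16 h (adjusted p = 0.00816) and 1.00 at 30 h (adjusted p = 0.000476). Xcl1, lymphotactin, rose at 30 h by 0.51 (adjusted p = 0.000796), as did Ackr4, an atypical receptor that takes up chemokines without G protein signalling, by 0.58 (adjusted p = 0.0239). Mif, a cytokine that binds Cxcr2 and Cxcr4, was lower at 16 h (-0.65, adjusted p = 0.049).

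Blood cell transcripts moved with Pf4 in part. Of 6 measured red cell markers none was called at 4 h, with an unadjusted p under 0.05 in 4 and all 6 differences above 0. At 16 h 3 were called higher and at 30 h 4, where 3.18% and 10.4% of all probe sets were higher. Their summed signal was 4288 to 5352 on heart-beating arrays, 4703 to 15691 on 4 h arrays, 14134 to 17225 on 16 h arrays and 13698 to 20574 on 30 h arrays. Of 3 measured platelet markers none was called at 4 h, 16 h or 30 h (unadjusted p under 0.05 in 0, 0 and 1), with a summed signal of 302 to 338 on 30 h arrays and 290 to 307 on heart-beating arrays. Their part in the Pf4 values was not tested.

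Upstream of the ligands, the list of inducing cytokines and NF-kB pathway genes had 29 of 31 members measured. None was called at 4 h (median log2 difference 0.06, unadjusted p under 0.05 in 5), 3 were higher and 2 lower at 16 h, and 4 were higher and 4 lower at 30 h. The shares over all probe sets at 16 h were 3.18% higher and 1.49% lower. The 3 and 2 of 29 called at 16 h lie above these shares, against which a list of this size can be read only roughly. At 30 h the shares were 10.4% higher and 9.36% lower, so 4 of 29 in each direction lies near them. At 30 h those with the smallest p were Icam1 (0.63, adjusted p = 0.000369), the adhesion molecule that leukocytes grip, Il1r1 (0.75, adjusted p = 0.00226), the interleukin 1 receptor, and Il33 (-0.58, adjusted p = 0.00309), a cytokine of the interleukin 1 family. Of 21 measured genes of receptor signalling, none was called at 4 h or 16 h (unadjusted p under 0.05 in 0 and 4), and 2 were higher and 2 lower at 30 h, which is also near those shares, among them Grk6 (0.49, adjusted p = 0.000571), a kinase that acts on activated receptors, Rac2 (-0.29, adjusted p = 0.00942), a GTPase of leukocytes, and Jak2 (-0.26, adjusted p = 0.0363), a tyrosine kinase.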

How the data were processed

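The deposited table gives a log2 signal for each probe set and array. Per the submitters' processing notes the authors used RMA and limma, and their versions and settings are not stated in the labels. RMA makes the arrays share nearly the same distribution, so a value is read against the rest of its own array, and the number of arrays limits the precision. Of 31099 rows, 57 were controls. Symbols came from the platform annotation (20826 probe sets with 1 symbol, 436 with several, 9780 with none) and were updated through gene IDs in RefSeq's GRCr8 annotation, which held 20758 of them and all 52 members.

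All 31042 other probe sets were fitted, with a mean for each group, in limma 3.58.1 in R 4.3.3 (lmFit and eBayes, 8 residual and 4.93 prior degrees of freedom), with Benjamini-Hochberg adjustment within each comparison and no filter on dim probe sets. Groups came from the labels, which state different donor animals. In lists, each gene was read from its brightest probe set. The test was tried on simulated data first. Array values are given for every called member and for the 5 brightest, and of each list up to 3 genes with the smallest p are named. The members and lists were chosen with earlier results of these data known. The comparison of probe sets of a gene, the Ccl6 minus marker difference and the promoter motifs were added after the values were seen. The alternatives are in the closing section.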

Additional observations from a re-analysis of the deposited data

How the results depend on the processing

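Ccl6 kept its 4 calls in every alternative but the Gapdh covariate (30 h against heart-beating donors -2.46 to -2.0 and 16 h against heart-beating donors -1.75 to -1.43 over the animals left out). Over the 25 named differences and 568 alternative values, 446 kept their direction and their side of the threshold, 118 lost the call, 3 gained it, and 1 reached 0.00, the Ccl22 set 1370619_at at 30 h against heart-beating donors with the Gapdh covariate. Counts of called members moved most. The shares of all probe sets that the same fits called, or had at an unadjusted p under 0.05, are not set beside these counts. A changed count can therefore not be read as a trait of the members. With the Gapdh 3′ minus 5′ difference as a covariate they were 0 (16 h against heart-beating donors), 0 (30 h against heart-beating donors), 1 (16 h against 4 h, Ccr2 at -0.56, adjusted p = 0.0344, which was not called in the fit reported), 0 (30 h against 4 h) and 0 (30 h against 16 h). The unadjusted p was under 0.05 in 11, 5, 7 and 2 members where limma called 0, and since the covariate moves with the interval, their parts cannot be told apart. Array weights gave 2 at 4 h against heart-beating donors (0 in the fit reported), 4 at 16 h against heart-beating donors (2), 5 at 16 h against 4 h (2) and 0 at 30 h against 16 h (1). Fitting only the groups compared gave 4 at 16 h against 4 h, 3 at 30 h against heart-beating donors (9) and 5 at 30 h against 4 h (9). At 16 h against heart-beating donors, cyclic loess, a further quantile normalization and a variance trend with robust settings each gave 1, with the Ccl5 call lost. At 30 h against 16 h the brightest probe set per gene, the mean of a gene's probe sets and the replicate block each gave 0 (unadjusted p under 0.05 in 3, 4 and 4, and in 3 with array weights). Median centring and the upper 50% of probe sets by mean signal left all 6 counts within 2 of those reported. The animals' numbers do not pair the samples: the correlation of same-numbered arrays, after removing group means, was -0.27 to 0.11, with 2 of 18 pairs over 0.1, against -0.23 to 0.24 for different numbers. With the number as a replicate block the counts were 0, 2 and 7 at 4 h, 16 h and 30 h against heart-beating donors, 2 at 16 h against 4 h, 10 at 30 h against 4 h and 0 at 30 h against 16 h. Leaving out 1 animal at a time gave 0 to 1 calls at 4 h against heart-beating donors (1 without 4 h animal 1), 1 to 3 at 16 h (1 without any heart-beating or 16 h animal or 4 h animal 2) and 5 to 9 at 30 h (5 without any heart-beating animal or 30 h animal 3). It gave 2 to 3 at 16 h against 4 h, 4 to 9 at 30 h against 4 h (4 without 4 h animal 3) and 0 to 3 at 30 h against 16 h. That last count was 3 without 30 h animal 2, 2 without heart-beating animal 1 or 30 h animal 3, and 0 without heart-beating animal 3, 4 h animal 3, 16 h animal 1 or 3, or 30 h animal 1. With 3 arrays a group and most members dim, small log2 differences lie near the threshold.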
